A study of Homo sapiens with 10 samples.

Results

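HSP90 is the chaperone that finishes the folding of many kinases and steroid receptors, and the genes described here encode its cytosolic and mitochondrial forms and the proteins that work with it. The 10 genes were chosen by name, with earlier results of these data known. They were found in the count table through their Ensembl identifiers, which gave 10 of 63187 rows. They are the chaperone genes HSP90AA1, HSP90AB1 and TRAP1 and the co-chaperone genes AHSA1, CHORDC1, STIP1, PTGES3, FKBP4, CDC37 and ST13. All 10 passed the filter on low counts in every comparison. RNA-seq was done on U2OS, a human osteosarcoma line, in 3 groups with 2 libraries each. The first group was heat-shocked YTHDC1 knockdown cells, whose labels give shYTHDC1 as the genotype, the second was heat-shocked control cells (shCtrl, labelled WT), and the third was control cells without heat shock (shCtrl, labelled WT, NHS). Sample titles name the reagents sh, while the column names name them si, so the kind of knockdown reagent is uncertain. No source used here gives the temperature of the heat shock or how long it lasted. YTHDC1 is a nuclear protein that binds N6-methyladenosine in RNA, and the study asked how it bears on genes for repair of broken DNA during the heat shock response. No knockdown library without heat shock was analysed here, so an effect of the knockdown at normal temperature cannot be told apart from one that needs heat.

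HSP90 works as a dimer that clamps onto a client protein and opens again as it binds and splits ATP. Co-chaperones set the pace of that cycle and choose the clients: some bring kinases, some bring clients over from HSP70, and others speed up or slow down the ATPase. In resting cells HSP90 is among the proteins that bind HSF1, the transcription factor of the heat shock response, and HSF1 in turn raises HSP90 and several co-chaperones after heat. HSF1 binds heat shock elements, inverted repeats of the letters GAA and TTC.

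Heat shock element letters stood upstream of annotated starts of 3 of the members. RefSeq promoter windows (GRCh38.p14, 250 bases before to 50 after a start) were matched by symbol for 8 of the 10 members, in 13 windows. FKBP4, the member that rose most with heat (5.32-fold), and ST13 were not matched. Each window was searched for the 8-letter motifs GAANNTTC and TTCNNGAA and for the 13-letter motifs that overlap both of them, in which 3 units alternate between GAA and TTC with NN between units. Both 8-letter motifs read the same on either strand, the 13-letter ones are each other's reverse complement, and each 13-letter motif contains both 8-letter ones. A 13-letter motif was found in 3 of the 13 windows, those of HSP90AA1, HSP90AB1 and CHORDC1, against 0.49% of all 35116 windows. An 8-letter motif was found in 4 of the 13 windows, against 13.5% of all windows. The 4 sequences below are the 250 bases before a start, written 5′ to 3′ along the strand of the gene. The first 3 are shown because they hold the longer motif, and that of TRAP1 because TRAP1 is the member whose change with heat did not pass the test. Capitals mark every match.
HSP90AA1 (chr14:102087045-102087294, minus strand): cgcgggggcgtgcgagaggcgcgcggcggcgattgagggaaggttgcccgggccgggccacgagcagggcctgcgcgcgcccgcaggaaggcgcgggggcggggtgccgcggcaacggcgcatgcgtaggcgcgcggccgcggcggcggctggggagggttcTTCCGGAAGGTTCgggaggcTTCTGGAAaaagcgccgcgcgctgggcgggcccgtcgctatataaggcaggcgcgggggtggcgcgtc
HSP90AB1 (chr6:44247693-44247942, plus strand): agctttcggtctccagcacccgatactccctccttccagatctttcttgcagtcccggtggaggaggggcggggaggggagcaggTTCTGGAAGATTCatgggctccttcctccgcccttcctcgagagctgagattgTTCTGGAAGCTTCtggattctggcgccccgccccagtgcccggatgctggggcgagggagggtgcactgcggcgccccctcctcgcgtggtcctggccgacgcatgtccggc
CHORDC1 (chr11:90223050-90223299, minus strand): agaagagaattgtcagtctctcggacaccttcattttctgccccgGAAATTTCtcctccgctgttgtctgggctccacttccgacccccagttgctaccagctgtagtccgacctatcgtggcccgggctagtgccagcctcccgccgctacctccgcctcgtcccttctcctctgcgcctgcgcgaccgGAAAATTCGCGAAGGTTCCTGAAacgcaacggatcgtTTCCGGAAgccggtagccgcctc
TRAP1 (chr16:3717525-3717774, minus strand): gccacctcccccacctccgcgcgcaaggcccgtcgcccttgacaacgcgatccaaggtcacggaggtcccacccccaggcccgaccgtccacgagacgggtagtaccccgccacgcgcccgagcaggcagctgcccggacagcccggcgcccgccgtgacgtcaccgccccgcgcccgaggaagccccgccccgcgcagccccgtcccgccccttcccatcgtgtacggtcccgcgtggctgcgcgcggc

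In HSP90AA1 the longer motif ran from position -88 to -76 before the second of 2 annotated starts, which lies inside the gene, with a further 8-letter motif from -68 to -61. HSP90AB1 had 2 of the longer motifs, from -165 to -153 and from -112 to -100 before the third of 3 starts, also inside the gene. CHORDC1 had 3 overlapping 13-letter matches from -60 to -38 before its only listed start, and separate 8-letter matches from -205 to -198 and from -23 to -16. STIP1 held a single 8-letter motif, after its second start, at positions 14 to 21. The windows of TRAP1, AHSA1, PTGES3 and CDC37 held none of these motifs. AHSA1, PTGES3 and CDC37 still rose with heat in control cells, by 3.42-, 1.99- and 1.24-fold, so TRAP1 does not stand for all members without a motif. A match describes the letters of the window and is not evidence of binding.

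**Figure D1:**
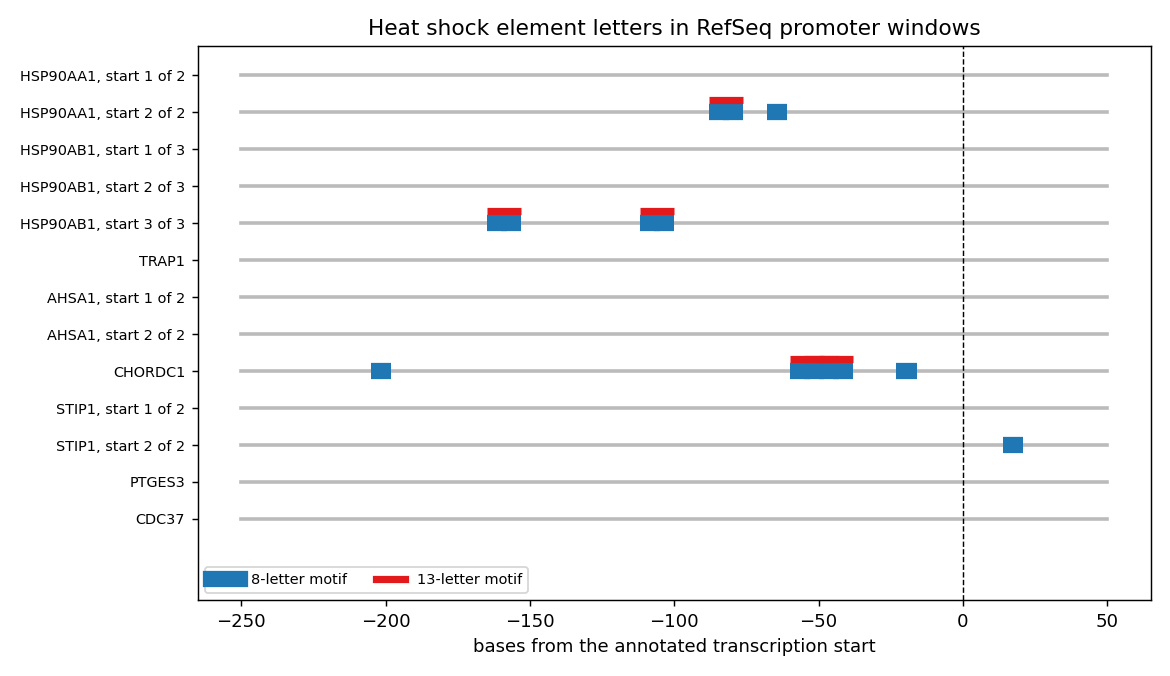
Matches to the heat shock element motifs in the RefSeq promoter windows of 8 members; the x axis is the distance in bases from the annotated start (dashed line), each grey line is a window, blue blocks are 8-letter and red bars 13-letter motifs. The 13-letter motif stands before 1 start each of HSP90AA1, HSP90AB1 and CHORDC1.

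The deposited values are read counts per gene. The libraries held 14419583 and 14497486 counts in heat-shocked knockdown cells, 13252370 and 14286747 in heat-shocked controls, with 15500743 and 15077827 in unheated controls. Levels below are in CPM, read counts scaled to the TMM-adjusted library size, and tests are edgeR's quasi-likelihood test with p adjusted over all 17290 genes tested. YTHDC1 stood at 121 and 118 CPM in the knockdown against 268 and 258 CPM in heat-shocked controls, and at 213 and 225 CPM in unheated controls (log2 fold change -1.14 ± 0.048 SE, adjusted p = 2.66e-15 for knockdown over heat-shocked control). Of 9 mesenchymal and bone markers 8 were detected, with TWIST1 listed at 0. COL1A2 was near silence, at 0.0717 to 2.25 CPM over the 6 libraries, while COL1A1 was at 1322 to 1932 CPM. The summed level of these markers was 5525 to 6372 CPM in the knockdown, 5621 to 5742 CPM in heat-shocked controls and 5614 to 5752 CPM in unheated controls. These sums hide opposite changes, since in the knockdown over heat-shocked controls 4 of 8 tested were called higher and 3 lower, with a median log2 fold change of 0.49. CDH2 was at 309 and 283 CPM in the knockdown against 157 and 166 CPM in heat-shocked controls, while VIM was at 1161 and 1129 CPM in the knockdown against 1593 and 1589 CPM in heat-shocked controls. With heat 1 of the 8 was called higher and 1 lower. All 6 epithelial markers were detected, at a sum of 92.1 to 98.0 CPM in the knockdown, 70.7 to 79.3 CPM in heat-shocked controls and 54.0 to 57.8 CPM in unheated controls. CLDN4 made up most of that sum, at 59.7 and 55.7 CPM in the knockdown against 59.5 and 69.5 CPM in heat-shocked controls, with 44.8 and 41.5 CPM in unheated controls. Of the 5 epithelial markers tested, 4 were called higher and 0 lower in the knockdown over heat-shocked controls (median log2 fold change 1.84), and EPCAM was at 19.98 and 20.5 CPM in the knockdown against 6.23 and 4.66 CPM in heat-shocked controls. With heat 1 of the 5 was called higher and 1 lower, with a median log2 fold change of -0.35. Of 5 blood markers HBB and CD3E were listed at 0 and the sum was 0.633 to 2.37, 1.54 to 6.38 and 0.126 to 0.385 CPM in the same order of groups. HBA2 made up most of the sum in heat-shocked libraries, at 0.352 and 1.60 CPM in the knockdown and 1.08 and 6.31 CPM in heat-shocked controls. It was at 0 in both unheated controls. HBA2 was the 1 blood marker tested and was not called with heat, though its log2 fold change of 8.77 was the highest of all tested genes. The part of these marker shifts in the changes below was not tested. In bulk RNA, fewer cells of a type and less RNA per cell cannot be told apart.

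Heat shock raised 9 of the 10 genes in control cells, and the exception was TRAP1. The largest rises were those of FKBP4, HSP90AA1 and CHORDC1, each more than 4-fold, and the smallest was that of CDC37, 1.24-fold. The median log2 fold change of the 10 genes was 1.23, against -0.027 over all 17290 genes tested. Of all tested genes 43.9% were called, 20.6% higher and 23.3% lower, or 3559 and 4033 genes. With library size alone as the scaling that split was 2932 higher and 5092 lower, and the 9 members were still called higher.

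Both cytosolic HSP90 genes rose, HSP90AA1 by far more. HSP90AA1 (ENSG00000080824, chromosome 14, 102080742 to 102139749) encodes the stress-inducible cytosolic form. It was at 9326 and 9276 CPM in heat-shocked controls, against 1813 and 1899.8 CPM in unheated controls. The 2 groups lie far apart and the libraries within each are close, and HSP90AA1 rose 5.01-fold (log2 fold change 2.32 ± 0.051 SE, adjusted p = 3.45e-21). Only 1.56% of tested genes had a larger log2 fold change. HSP90AB1 (ENSG00000096384, chromosome 6, 44246194 to 44253883) encodes the form that is abundant in unstressed cells. It reached 8924 and 9149 CPM in heat-shocked controls, against 3918 and 4016 CPM in unheated controls. This amounts to a 2.28-fold rise with no overlap of the groups (log2 fold change 1.19 ± 0.046 SE, adjusted p = 2.8e-16).

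TRAP1 (ENSG00000126602, chromosome 16, 3658037 to 3717524), the mitochondrial HSP90, did not pass the test. Its level was 208 and 203 CPM in heat-shocked controls, against 217 and 208 CPM in unheated controls. The ranges overlap, and the log2 fold change was -0.048 with a 95% interval of -0.15 to 0.058 (adjusted p = 0.48).

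Among the co-chaperones FKBP4, CHORDC1 and AHSA1 rose most. FKBP4 (ENSG00000004478, chromosome 12, 2794970 to 2805423) encodes an immunophilin with peptidyl-prolyl isomerase activity that joins HSP90 in steroid receptor complexes. It was at 2465 and 2599 CPM in heat-shocked controls, against 486 and 466 CPM in unheated controls. This 5.32-fold rise was the largest of the 10 (log2 fold change 2.41 ± 0.048 SE, adjusted p = 4.69e-22). CHORDC1 (ENSG00000110172, chromosome 11, 90200429 to 90223049) encodes a zinc-binding co-chaperone that holds HSP90 by its CHORD domains. It stood at 562 and 555 CPM in heat-shocked controls, against 133 and 131 CPM in unheated controls, a 4.23-fold rise (log2 fold change 2.08 ± 0.048 SE, adjusted p = 6.36e-21). AHSA1 (ENSG00000100591, chromosome 14, 77457867 to 77469472), the activator of the HSP90 ATPase, was at 652 and 613 CPM in heat-shocked controls, against 188 and 182 CPM in unheated controls. It rose 3.42-fold (log2 fold change 1.77 ± 0.047 SE, adjusted p = 1.01e-19).

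The remaining 4 co-chaperones rose less. STIP1 (ENSG00000168439, chromosome 11, 64185272 to 64204543) encodes the adaptor that holds HSP70 and HSP90 together while a client is passed on. It had 1022 and 997 CPM in heat-shocked controls, against 416 and 419 CPM in unheated controls (log2 fold change 1.27 ± 0.043 SE, adjusted p = 2.06e-17). PTGES3 (ENSG00000110958, chromosome 12, 56663349 to 56688284), which stabilises the closed, ATP-bound clamp, had 482 and 487 CPM in heat-shocked controls, against 241 and 246 CPM in unheated controls. The gene thus rose 1.99-fold (log2 fold change 0.99 ± 0.048 SE, adjusted p = 1.71e-14).

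ST13 (ENSG00000100380, chromosome 22, 40824535 to 40856639) encodes a partner of HSP70 that acts early in the client pathway. It was at 558 and 553 CPM in heat-shocked controls, against 382 and 375 CPM in unheated controls, 1.47-fold higher (log2 fold change 0.55 ± 0.044 SE, adjusted p = 2.27e-10). CDC37 (ENSG00000105401, chromosome 19, 10391133 to 10403542), which delivers protein kinases to HSP90, was at 242 and 244 CPM in heat-shocked controls, against 194 and 199 CPM in unheated controls (log2 fold change 0.31 ± 0.044 SE, adjusted p = 3.73e-06). Even for these 2 genes every heat-shocked control library lay above every unheated one.

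**Figure D2:**
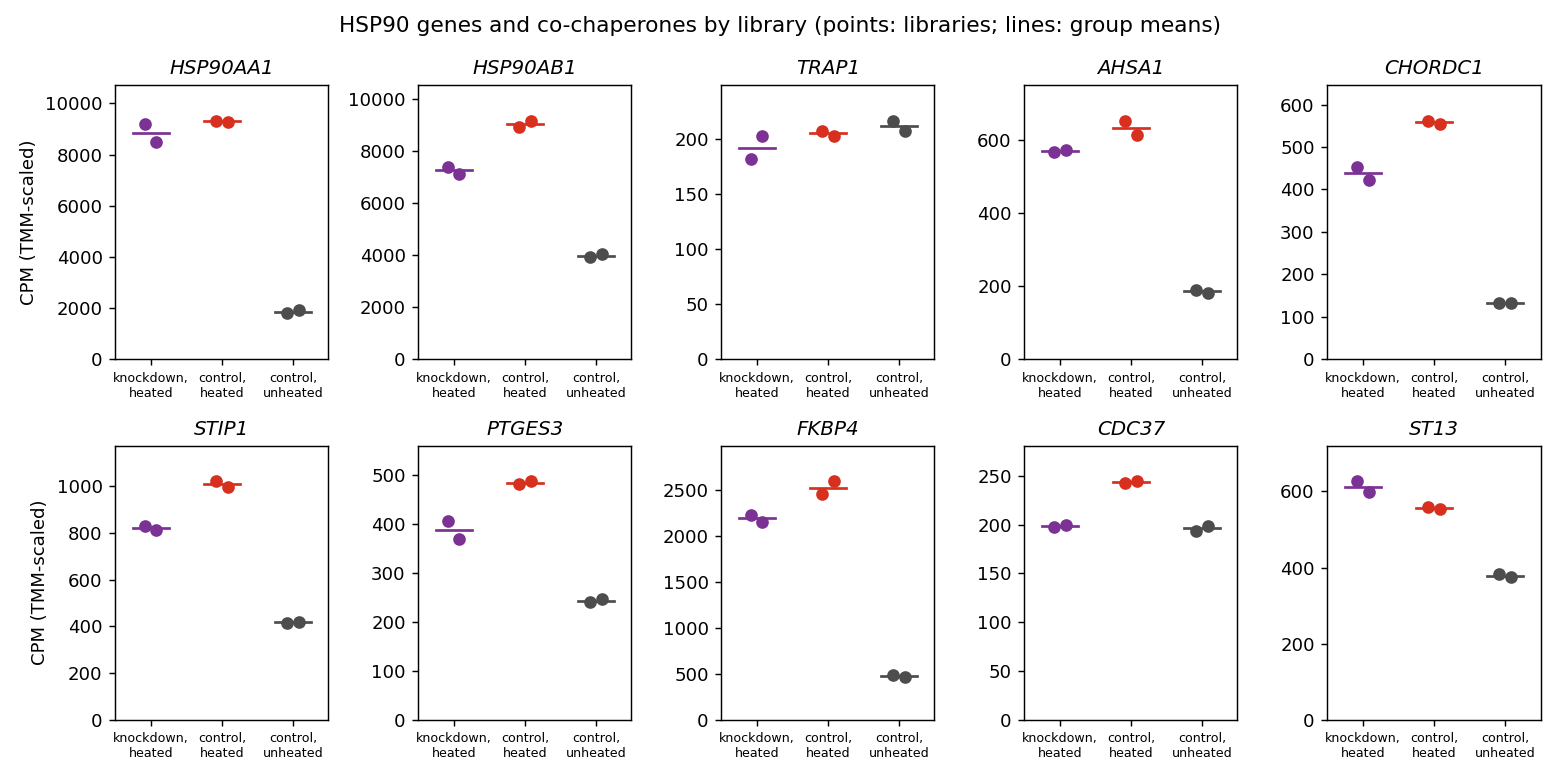
Level of each member in CPM (y axis, from 0) in each library, grouped as heat-shocked YTHDC1 knockdown, heat-shocked control and unheated control; points are libraries and lines group means (n = 2). 9 genes stand higher in heat-shocked than in unheated controls, and TRAP1 lies between 182 and 217 CPM in every library. The edgeR test called 7 genes lower in the knockdown than in heat-shocked controls, and the means of HSP90AA1 and TRAP1, which were not called, are lower too.

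The knockdown lowered 7 of the 10 genes in heat-shocked cells, raised ST13 and left HSP90AA1 and TRAP1 short of the threshold. Each of these changes was below 1.3-fold in size. The median log2 fold change of the 10 genes was -0.25, against -0.0042 over all tested genes. Over all tested genes 54.5% were called, 27.4% higher and 27.2% lower.

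The cytosolic forms differed in this comparison. HSP90AB1 was at 7363 and 7116 CPM in the knockdown, against 8924 and 9149 CPM in heat-shocked controls. Both knockdown libraries lay below both controls, and the log2 fold change was -0.32 ± 0.045 SE (adjusted p = 2.18e-06). HSP90AA1 was at 9199 and 8473 CPM in the knockdown, against 9326 and 9276 CPM in heat-shocked controls. The groups did not overlap, and the log2 fold change was -0.074 with a 95% interval of -0.17 to 0.026 (adjusted p = 0.204). The call rests on the knockdown libraries, since without the first of them HSP90AA1 was called lower (log2 fold change -0.14, adjusted p = 0.0132).

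TRAP1 had 182 and 203 CPM in the knockdown, against 208 and 203 CPM in heat-shocked controls. The second knockdown library was level with the controls, and the log2 fold change was -0.095 with a 95% interval of -0.20 to 0.011 (adjusted p = 0.123). Without the second knockdown library TRAP1 was called lower (log2 fold change -0.17, adjusted p = 0.00186).

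Of the co-chaperones CHORDC1 fell furthest, to 453 and 423 CPM in the knockdown, against 562 and 555 CPM in heat-shocked controls. The knockdown kept 78.4% of the control level (log2 fold change -0.35 ± 0.044 SE, adjusted p = 3.58e-07). PTGES3 fell to 407 and 370.02 CPM in the knockdown, against 482 and 487 CPM in heat-shocked controls (log2 fold change -0.32 ± 0.047 SE, adjusted p = 3.5e-06). STIP1 fell to 831 and 812 CPM in the knockdown, against 1022 and 997 CPM in heat-shocked controls (log2 fold change -0.30 ± 0.042 SE, adjusted p = 2.27e-06). CDC37 fell to 197 and 199 CPM in the knockdown, against 242 and 244 CPM in heat-shocked controls (log2 fold change -0.30 ± 0.045 SE, adjusted p = 5.14e-06). In all 4 the groups were separate.

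FKBP4 and AHSA1 fell by less. FKBP4 stood at 2234 and 2159 CPM in the knockdown, against 2465 and 2599 CPM in heat-shocked controls (log2 fold change -0.20 ± 0.045 SE, adjusted p = 4.94e-04). AHSA1 stood at 567 and 572 CPM in the knockdown, against 652 and 613 CPM in heat-shocked controls (log2 fold change -0.15 ± 0.044 SE, adjusted p = 0.00546). The AHSA1 call was lost without the first heat-shocked control library (log2 fold change -0.11, adjusted p = 0.109).

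ST13 was the one member called higher in the knockdown. It had 626 and 597 CPM in the knockdown, against 558 and 553 CPM in heat-shocked controls (log2 fold change 0.14 ± 0.043 SE, adjusted p = 0.00848). The groups did not overlap, but the call was lost without the first knockdown library (log2 fold change 0.10, adjusted p = 0.053) and without the second heat-shocked control library (0.12, adjusted p = 0.076).

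Heat-shocked knockdown cells were also set against unheated controls. This comparison shares its libraries with the other 2, so its values are no separate evidence. 8 members were higher in the knockdown, TRAP1 was lower and CDC37 did not pass, where 62.2% of all tested genes were called, 31.1% higher and 31.1% lower. The median log2 fold change of the 10 genes was 0.92, against -0.0043 over all tested genes. HSP90AA1 was 4.76-fold higher in heat-shocked knockdown cells than in unheated controls, FKBP4 4.62-fold, CHORDC1 3.32-fold and AHSA1 3.08-fold. STIP1 was 1.97-fold, HSP90AB1 1.82-fold, ST13 1.62-fold and PTGES3 1.60-fold higher. CDC37 averaged 198 ± 1.52 CPM in the knockdown and 196 ± 3.81 CPM in unheated controls (SD, n = 2 each), with a log2 fold change of 0.014 and a 95% interval of -0.078 to 0.11 (adjusted p = 0.802). For TRAP1 the log2 fold change was -0.14 ± 0.051 SE (adjusted p = 0.0182). That call was lost without the first knockdown library (-0.072, adjusted p = 0.211), without the first unheated library (-0.12, adjusted p = 0.154) and with the DESeq2 Wald test (-0.13, adjusted p = 0.0916).

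**Figure D3:**
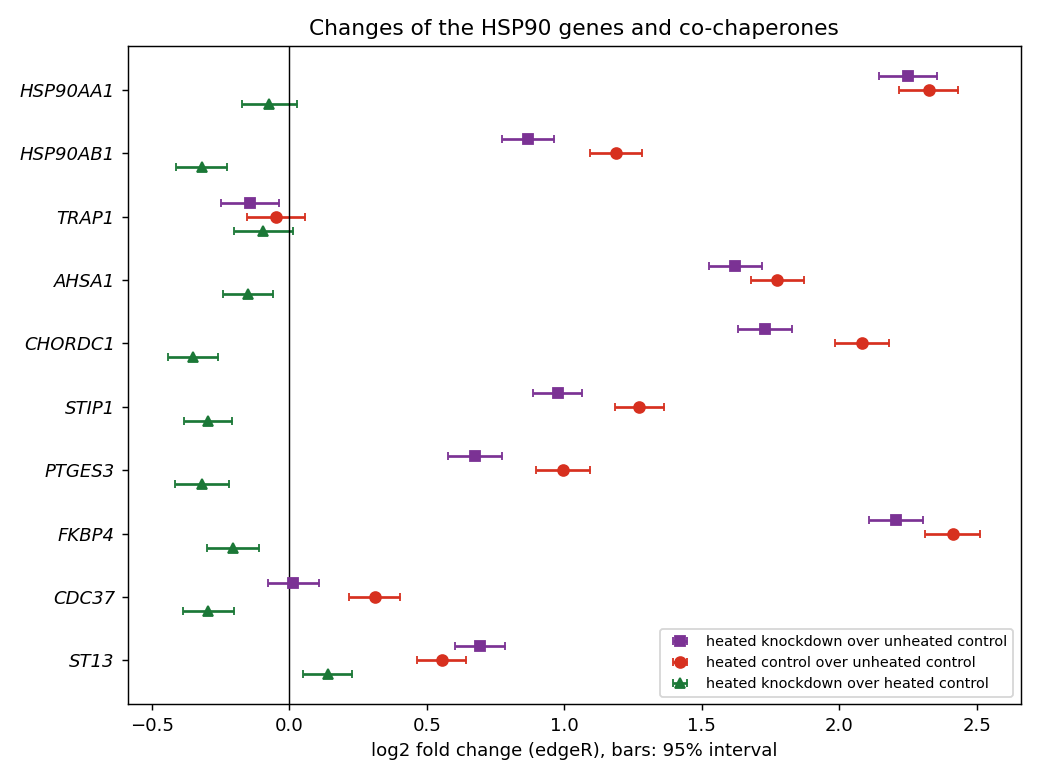
Log2 fold change of each member (x axis) with its 95% interval in the 3 comparisons: heat-shocked knockdown over unheated control (squares), heat-shocked control over unheated control (circles) and heat-shocked knockdown over heat-shocked control (triangles). Circles run from -0.048 for TRAP1 to 2.41 for FKBP4, and triangles from -0.35 for CHORDC1 to 0.14 for ST13.

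The balance between the cytosolic HSP90 genes moved toward HSP90AA1. Of the counts of HSP90AA1 and HSP90AB1 together, HSP90AA1 took 55.5% and 54.4% in the knockdown, 51.1% and 50.3% in heat-shocked controls, with 31.6% and 32.1% in unheated controls. The exact binomial 95% intervals, which cover counting error only, were 55.3% to 55.7% and 54.1% to 54.6% in the knockdown, 50.9% to 51.3% and 50.2% to 50.5% in heat-shocked controls, and 31.3% to 31.9% and 31.8% to 32.4% in unheated controls. The 3 groups were separate, but with 2 libraries against 2 an exact permutation test cannot go below a two-sided p of 0.333. HSP90AA1 is the longer gene in the table (5097 bases against 2980 bases for HSP90AB1), so its share per kb was lower. It averaged 41.6% ± 0.829 in the knockdown, 37.6% ± 0.501 in heat-shocked controls and 21.5% ± 0.261 in unheated controls (SD, n = 2 each). HSP90AB1 was thus the higher of the pair per kb in all 6 libraries. By counts HSP90AA1 was the higher in every heat-shocked library, so the order of the pair there depends on the deposited lengths.

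**Figure D4:**
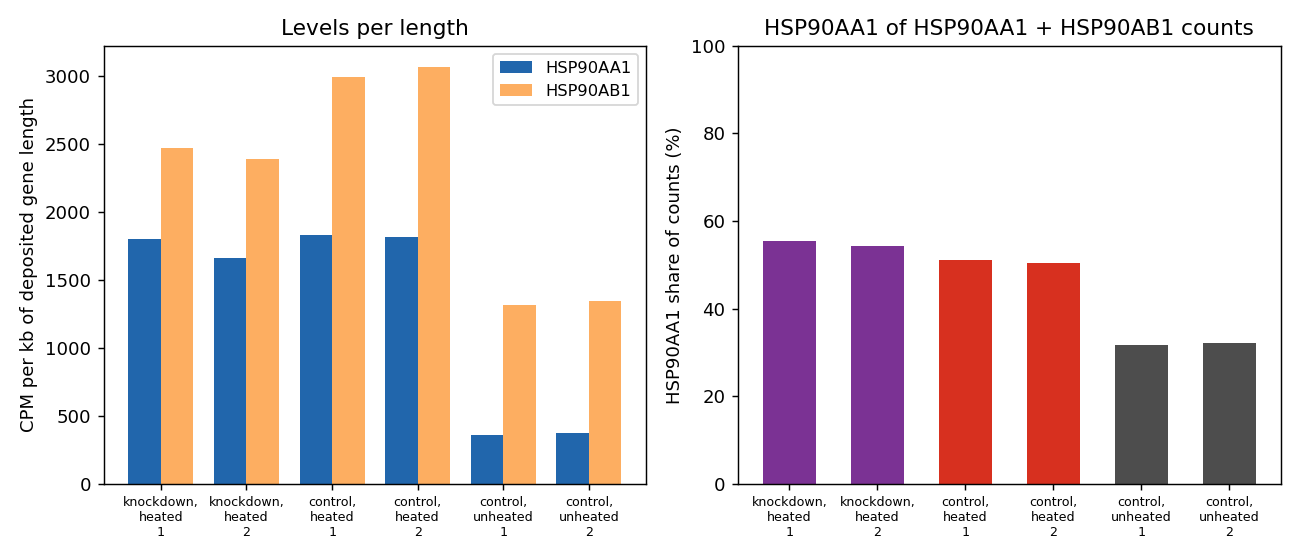
Left, level of HSP90AA1 and HSP90AB1 in CPM per kb of deposited gene length in each library; right, HSP90AA1 as a percentage of the counts of both genes in each library, with groups in the order knockdown, heat-shocked control, unheated control. The share is between 50.3% and 55.5% in the 4 heat-shocked libraries and between 31.6% and 32.1% in the 2 unheated ones.

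Ordered by CPM per kb of deposited gene length, HSP90AB1 and HSP90AA1 stood first and second of the 10 members in every group. HSP90AB1 averaged 2429 ± 58.4 CPM per kb in the knockdown, 3032 ± 53.2 in heat-shocked controls and 1331 ± 23.2 in unheated controls. HSP90AA1 averaged 1734 ± 101 CPM per kb in the knockdown, 1825 ± 6.93 in heat-shocked controls and 364 ± 11.9998 in unheated controls. Among all rows of the table, HSP90AB1 ranked 8 and 11 in the knockdown, 8 in both heat-shocked controls and 15 in both unheated controls. HSP90AA1 ranked 14 and 17 in the knockdown, 15 in both heat-shocked controls and 69 and 62 in unheated controls. FKBP4 was the third of the 10 members in both heat-shocked groups.

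After FKBP4, in heat-shocked controls STIP1 (219 ± 3.75 CPM per kb) and AHSA1 (215 ± 9.50) came next with overlapping libraries, followed by ST13, PTGES3, CDC37, CHORDC1 and TRAP1. In the knockdown the order was AHSA1, STIP1, ST13, PTGES3, CDC37, CHORDC1 and TRAP1 after FKBP4, and the last pair overlapped. After the cytosolic HSP90 genes, in unheated controls ST13 (101 ± 1.25 CPM per kb) came next, followed by FKBP4 and STIP1, which overlapped, then PTGES3, then CDC37 and AHSA1, which also overlapped, then TRAP1. CHORDC1 was last in unheated controls at 11.9 ± 0.121 CPM per kb, and its deposited length of 11099 bases, the longest of the 10, weighs on its place. Together the 10 members took 2.17% and 2.07% of all counts in the knockdown, 2.40% and 2.41% in heat-shocked controls, with 0.817% and 0.841% in unheated controls. The summed level per kb of the cytosolic HSP90 genes over that of the 7 co-chaperones was 3.57 and 3.49 in the knockdown, 3.60 and 3.63 in heat-shocked controls, with 3.37 and 3.49 in unheated controls. That ratio spans a narrow range over the 6 libraries, while the sums themselves differed more than 2-fold between heat-shocked and unheated controls. The ratio of sums does not describe single co-chaperones, which changed unequally. FKBP4 averaged 490 CPM per kb in heat-shocked and 92.1 in unheated controls, and CDC37 averaged 79.9 and 64.5.

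A list of 31 other genes of the HSP90 machinery, among them the endoplasmic reticulum form and further co-chaperones, was also examined. In heat-shocked controls 10 of the 30 that were tested rose, 9 fell and 11 missed the threshold, beside 20.6% higher and 23.3% lower over all tested genes. The median log2 fold change of the list was 0.044 against -0.027 over all tested genes, and AHSA2P was listed at 0 in all 6 libraries. The 3 largest rises were of CACYBP, a calcyclin-binding protein, PPID, a cyclophilin with the same kind of HSP90-binding repeat domain as FKBP4, and NUDC, a dynein-associated co-chaperone. CACYBP was at 769 and 740 CPM in heat-shocked controls, against 194 and 198 CPM in unheated controls (log2 fold change 1.94 ± 0.047 SE, adjusted p = 1.74e-20). The log2 fold change was 1.41 for PPID and 1.19 for NUDC. The largest falls were of STUB1, a ubiquitin ligase that binds chaperones (-0.39), and of FNIP1 and FNIP2, folliculin partners that slow the HSP90 ATPase (-0.34 each). HSP90B1, the HSP90 of the endoplasmic reticulum, rose by 0.22 ± 0.049 SE (adjusted p = 6.92e-04). The count of falls was 3 with the DESeq2 Wald test, 4 without the second heat-shocked control or the first unheated library, and 5 without the first heat-shocked control or the second unheated library. The FNIP2 call was lost with the DESeq2 Wald test (adjusted p = 0.0978), without the second heat-shocked control library (0.143) and without the first unheated library (0.0689).

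In the knockdown 11 of these 30 genes rose, 11 fell and 8 missed the threshold, beside 27.4% higher and 27.2% lower over all tested genes. The median log2 fold change was -0.092, against -0.0042 over all tested genes. FNIP2 rose to 32.1 and 33.7 CPM in the knockdown, against 14.9 and 13.2 CPM in heat-shocked controls (log2 fold change 1.23 ± 0.097 SE, adjusted p = 1.42e-10). NUDCD3 was at 104 and 102 CPM in the knockdown, against 53.8 and 50.2 CPM in heat-shocked controls (log2 fold change 0.98 ± 0.058 SE, adjusted p = 9.17e-13), and FLCN, folliculin itself, had a log2 fold change of 0.66. RUVBL1, an ATPase that assembles large complexes together with HSP90, fell to 78.9 and 72.4 CPM in the knockdown, against 156 and 143 CPM in heat-shocked controls (log2 fold change -0.98 ± 0.057 SE, adjusted p = 6.87e-13). PIH1D1, an adaptor of the same assembly machinery, fell with a log2 fold change of -0.61. The fall of ITGB1BP2, a muscle co-chaperone, rested on 5 and 12 counts in the knockdown against 22 and 21 counts in heat-shocked controls. It was lost with the DESeq2 Wald test (adjusted p = 0.0589) and without the first knockdown library (0.106).

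Against unheated controls, heat-shocked knockdown cells had 17 of these 30 genes higher, 7 lower and 6 not passing, beside 31.1% higher and 31.1% lower over all tested genes. The median log2 fold change was 0.21, against -0.0043 over all tested genes. The largest rises were again of CACYBP, PPID and NUDC (log2 fold changes of 1.73, 1.30 and 0.95), and the largest falls of ITGB1BP2, RUVBL1 and PIH1D1 (-1.35, -0.98 and -0.95). The count of lower genes was 4 with the DESeq2 Wald test. The ITGB1BP2 call was lost with the DESeq2 Wald test (adjusted p = 0.0639), without the first knockdown library (0.117) and without the second unheated library (0.122).

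**Figure D5:**
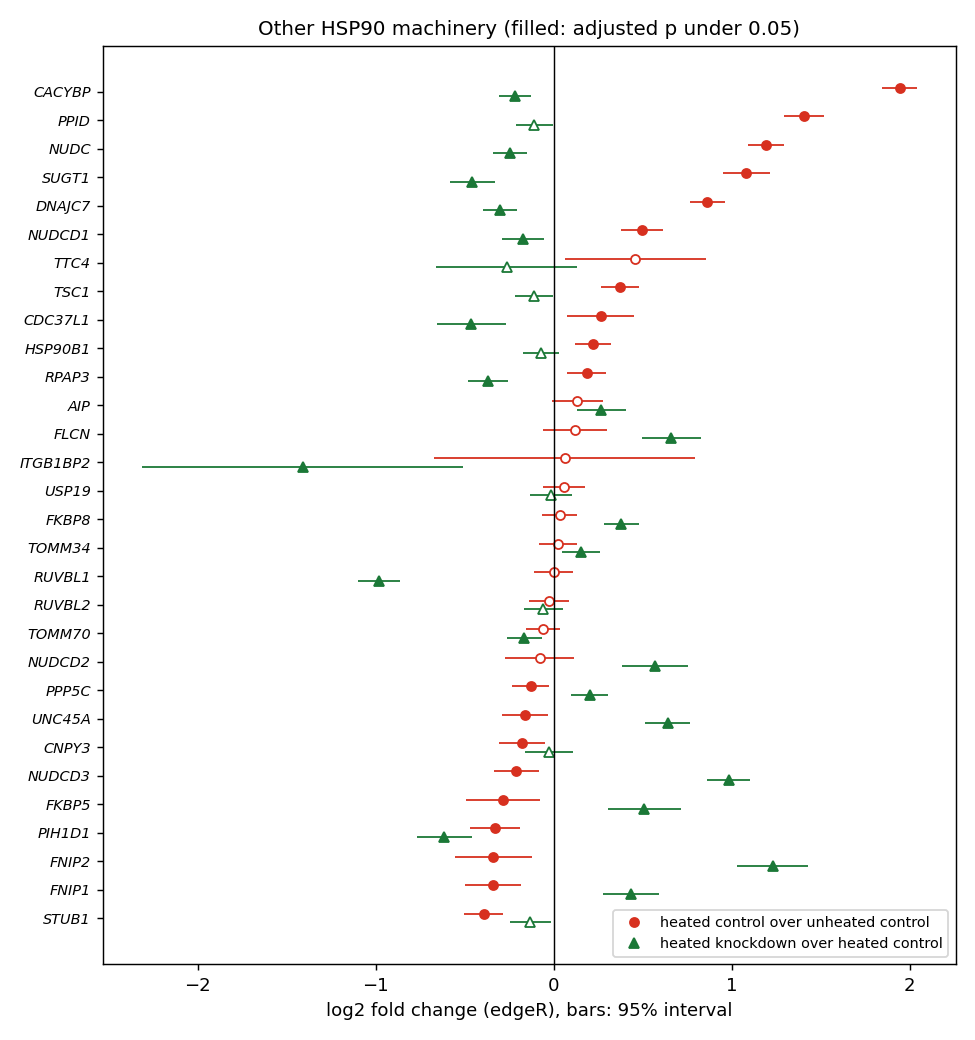
Log2 fold change (x axis) with its 95% interval for 30 other genes of the HSP90 machinery, ordered by the change in heat shock: circles are heat-shocked over unheated control, triangles heat-shocked knockdown over heat-shocked control, and filled symbols have an adjusted p under 0.05. Circles run from 1.94 for CACYBP to -0.39 for STUB1; both series use the heat-shocked control libraries.

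Of a list of 40 genes for HSP90 client proteins (kinases, receptors and transcription factors) 36 were tested. In heat-shocked controls 9 of them rose and 13 fell, beside the 20.6% higher and 23.3% lower over all tested genes, and their median log2 fold change was -0.024 against -0.027 over all tested genes. Among the largest rises was that of EIF2AK2, a kinase activated by double-stranded RNA, with a log2 fold change of 1.19. ESR1, the oestrogen receptor, was also called higher but was near silence, with 14 and 10 counts in heat-shocked controls, against 1 count in each unheated control. The largest falls were of ULK1, a kinase that starts autophagy (-0.75), RIPK1, a kinase of cell death signalling (-0.58), and ERBB2, a receptor of the EGF receptor family (-0.57). The count of falls was 8 with the DESeq2 Wald test and without either unheated library.

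In the knockdown 15 of the 36 client genes rose and 13 fell, beside 27.4% higher and 27.2% lower over all tested genes. Their median log2 fold change was 0.055, against -0.0042 over all tested genes. Among the largest falls were those of MET and EIF2AK2. MET, the receptor of hepatocyte growth factor, fell to 22.7 and 20.04 CPM in the knockdown, against 41.4 and 44.3 CPM in heat-shocked controls (log2 fold change -1.003 ± 0.082 SE, adjusted p = 3.15e-10), and EIF2AK2 fell with a log2 fold change of -0.59. The largest rises were of NR3C2, the mineralocorticoid receptor (0.86), ULK1 (0.64) and WEE1, a kinase that holds back mitosis (0.63). Against unheated controls 14 of the 36 were higher and 13 lower in heat-shocked knockdown cells, beside the 31.1% higher and 31.1% lower over all tested genes, with a median log2 fold change of -0.0047 against -0.0043 over all tested genes. BRAF (1.08) and IGF1R (0.77) were among the largest rises there, as was ESR1, which had 16 and 29 counts in the knockdown against 1 count in each unheated control. MET (-1.11) and RIPK1 (-0.65) were among the largest falls.

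The genes whose levels followed the cytosolic HSP90 genes most closely were found by the Euclidean distance between log2 CPM values, centred on each gene's mean, over the 6 libraries. There were 11538 candidate genes with a mean of at least 5 CPM. Closest to HSP90AA1 were DGKE (distance 0.0973), PGF (0.155), ENGASE (0.204), MATCAP2 (0.233) and KLHL25 (0.235). Their log2 fold changes in heat shock were 2.39, 2.22, 2.27, 2.29 and 2.39, beside 2.32 for HSP90AA1. Closest to HSP90AB1 were ME1 (0.111), ZNF436 (0.116), CRYZ (0.128), NUDC (0.131) and ZNF221 (0.147), with log2 fold changes in heat shock of 1.21, 1.09, 1.30, 1.19 and 1.29, beside 1.19 for HSP90AB1. These genes were picked by that distance over the same libraries, so their similar changes in heat shock follow from the choice. The libraries are few and fall into 3 groups, so closeness here says little beyond a similar level in each group.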

How the data were processed

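RNA-seq libraries of U2OS cells were analysed as 3 groups of 2 libraries. The authors deposited raw counts, whole numbers for each gene, together with a gene length, per the file headers. The submitters' processing notes name HISAT2 2.2.1, SAMtools 1.17 and featureCounts 2.0.2 among the tools, and GRCh38. No source used here gives the annotation, the strand setting or how multi-mapping reads were handled, so counts of near-identical copies and of overlapping or antisense genes are uncertain. The 4 methylated RNA immunoprecipitation samples were not analysed here.

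All 6 libraries entered a single edgeR 4.0.16 fit (TMM scaling, filterByExpr with a minimum count of 10, robust quasi-likelihood F test, Benjamini-Hochberg adjustment over 17290 genes, threshold 0.05) with 3 residual degrees of freedom, in R 4.3.3. Unless another tool is named, each adjusted p is edgeR's. SE is the log2 fold change divided by the square root of F, and CPM per kb divides by the deposited length, which is in bases. Symbols were matched to 62666 of 63187 identifiers, and the 521 without one held 0.0602% to 0.0698% of the counts. The test was checked on simulated counts. The members and lists were chosen with earlier results of these data known. The text names all 10 members, the 3 called genes of each list with the largest log2 fold change in each direction, pseudogenes of the members' families, YTHDC1, and for HSP90AA1 and HSP90AB1 the 5 genes closest in centred log2 CPM with a mean of at least 5 CPM, outside the members and their pseudogenes. HSP90B1 was chosen after its values were seen. A few client genes that this rule names are not reported here. The libraries of a group are not stated to come from separate cultures, and the p-values reflect only how far these libraries spread, which may be technical. Libraries of 1 group were not copies of each other, with a chi-square per gene and degree of freedom of 3.61 in the knockdown, 2.71 in heat-shocked controls and 1.55 in unheated controls. Alternatives were other scalings, DESeq2 1.42.0, no filter, a fit of only the groups compared, no robust estimation, a replicate block, summing pseudogenes, and leaving out each library.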

Additional observations from a re-analysis of the deposited data

How the results depend on the processing

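Over 14 alternative settings the 30 member values gave 420 results, of which 410 kept their direction and their side of the threshold. In heat shock all 140 did. Leaving out single libraries changed calls of HSP90AA1, TRAP1, AHSA1 and ST13 in the knockdown and of TRAP1 against unheated controls, as given with those genes; the cause was not tested. CDC37, not called in heat-shocked knockdown cells against unheated controls, had a log2 fold change of -0.042 with library size alone, and between -0.013 (without the first unheated library) and 0.023 when a library was left out. Members called higher in the knockdown numbered between 0 and 1 when a library was left out, and members called lower against unheated controls between 0 and 1, or 0 with the DESeq2 Wald test. That test called 2514 genes lower in heat shock, against 4033 by edgeR. The HSP90AA1 share was 41.6% in the knockdown, 37.6% in heat-shocked controls and 21.5% in unheated controls per kb, which follows from the gene lengths, and 32.3% in unheated controls with pseudogene counts added. The replicate numbers are not stated to pair libraries. Deviations of same-numbered libraries correlated at 0.055, -0.060 and -0.030 between groups over 11574 genes. With the replicate block 3528 genes were higher and 3966 lower in heat shock, 4697 and 4675 in the knockdown, and 5337 and 5347 between heat-shocked knockdown and unheated controls, and the block changed no member's call. With 2 libraries per group, changes near the size of the library spread, such as those of TRAP1, ST13 and AHSA1 in the knockdown, are at the limit of these data.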

Other observations

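Rows named as pseudogenes of these families carried a small part of the reads, and HSP90AA2P and HSP90AB3P moved beside their parents. The table held 49 rows with such names, of which 11 were at 0 in every library and 18 passed the filter. They were found by symbol alone, so the kind of each row is not known, and AHSA2P is among them. HSP90AA2P had 3606 and 3660 counts in the knockdown, 3444 and 3585 in heat-shocked controls, with 862 and 825 in unheated controls. That was 2.76% and 3.01% of the HSP90AA1 count in the knockdown, 2.84% and 2.77% in heat-shocked controls, with 2.998% and 2.79% in unheated controls. HSP90AB3P was at 1.01% and 0.987% of the HSP90AB1 count in the knockdown, 1.26% and 0.953% in heat-shocked controls, with 0.979% and 0.995% in unheated controls. These ratios overlapped between the groups, and reads of such near-identical copies cannot be told apart with certainty. Some smaller rows differed between the first and second heat-shocked control, with HSP90AB2P at 104 and 51 counts and HSP90B3P at 141 and 75. ST13P5 went the other way, at 71 and 110 counts, and the cause was not tested. For PTGES3 the 5 pseudogene rows together held 4.28% and 4.31% of the parent's count in the knockdown, 4.66% and 4.29% in heat-shocked controls, with 6.24% and 6.09% in unheated controls.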
